A study of Homo sapiens with 6 samples.

Results

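The names of 7 genes defined the set of long noncoding RNAs described here: MALAT1, NEAT1 and KCNQ1OT1, which stay in the nucleus of most cell types, and PCGEM1, PCA3, PCAT1 and SCHLAP1, which are linked to the prostate. They were picked by name from a table of 63299 gene rows, not by their values. The 7 names matched 9 rows. Of these, 7 rows, 1 for each name, held reads and passed the filter on low counts, and they are the members. The other 2 rows are short annotated fragments of MALAT1 (95 bases) and PCGEM1 (131 bases) that were listed at 0 in every library.

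Long noncoding RNAs are transcripts with no known protein product. MALAT1 is among the most abundant nuclear transcripts and collects in nuclear speckles, bodies rich in splicing factors. NEAT1 is the scaffold of another nuclear body, the paraspeckle, which is built on its long isoform and holds RNA-binding proteins. KCNQ1OT1 is an unspliced, imprinted transcript that runs against KCNQ1 and silences neighbouring genes on the same chromosome copy. PCGEM1 and PCA3 are transcripts typical of the prostate, and PCA3 in urine is a diagnostic marker of prostate cancer. PCAT1 lies upstream of MYC and was found through its high level in prostate tumours, and SCHLAP1 marks aggressive disease.

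RNA was sequenced from LNCaP cells, an androgen-dependent human prostate cancer line. The knockdown group is 3 libraries of LNCaP cells labelled as given doxycycline and as having a knockdown of MEP50, the partner protein of the arginine methyltransferase PRMT5, by a short hairpin RNA. The control group is 3 libraries labelled as given no doxycycline and as having no knockdown. The comparison asks which genes differ when MEP50 is lowered, and with no library of doxycycline alone, drug and knockdown cannot be told apart. The labels do not say whether the cells were 1 clone or a pool, and name a single hairpin target. The p-values measure the spread between the libraries, which the design calls biological replicates.

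Knockdown libraries held 18568002 to 36001219 counts and control libraries 27509105 to 36234784. WDR77, the gene of MEP50, fell to 13.9 ± 1.16 CPM in knockdown, against 44.4 ± 6.73 CPM in control (SD, n = 3 each; log2 fold change -1.67, adjusted p 0.00131, edgeR quasi-likelihood test). CPM is the usual scaling of counts to a common library total, here with TMM factors. All 10 LNCaP marker genes had reads, with a summed level of 4729 to 5249 CPM in knockdown and 7828 to 9249 CPM in control, and 4 of the 10 fell (KLK3, KLK2, TMPRSS2 and KRT18). The 12 markers of basal, stromal, immune and endothelial cells summed to 33.4 to 46.0 CPM in knockdown and 28.5 to 49.2 CPM in control. Among them KRT5 was at 0 in every library, VIM rose (6.92 to 22.3 CPM in knockdown, 1.599 to 3.69 CPM in control) and KRT14 fell (0 to 0.229 CPM in knockdown, 0.666 to 1.11 CPM in control). VWF had 10.4 to 25.9 CPM in knockdown and 18.5 to 39.0 CPM in control. COL1A1 had 9.33 to 12.6 CPM in knockdown and 5.32 to 14.3 CPM in control. Neither had an adjusted p under 0.05 in the edgeR test, and VWF was lower in the fit with a replicate block described below. In bulk RNA, fewer cells of a type and less RNA per cell cannot be told apart, and the part of these markers in the results below was not tested.

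A check of how reads were assigned to strands bears on every member that overlaps another gene, and was chosen after the values were seen. It used single-exon entries that lie wholly inside an exon of an abundant gene. All 115 such entries on the same strand as the larger gene were at 0 reads, whereas 94 of 97 on the opposite strand held reads. The opposite-strand entries had a median of 0.71 times the reads per base of the gene around them (quartiles 0.178 and 1.17). With opposite-strand entries at such densities, sense and antisense reads of these loci cannot be told apart from these counts. The strand setting of the counting is not given in the sources used here, and the cause of this pattern was not tested.

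PCAT1 and PCA3 passed the threshold of an adjusted p under 0.05 in the edgeR quasi-likelihood test, both higher in knockdown. That is 2 of 7 higher, where 2.72% of the 21101 tested genes were called higher. None of the 7 was called lower, where 4.88% of tested genes were. Without adjustment, p was under 0.05 for 3 members higher (PCAT1, PCA3 and MALAT1) and 1 lower (PCGEM1). The share of all genes at that looser threshold is not given here. DESeq2 called PCAT1 and PCA3 higher and PCGEM1 lower, where 898 of the 21101 genes fitted were called higher and 1440 lower. DESeq2 left some of these genes without an adjusted p. Limma-voom called PCAT1 and PCA3 higher and no member lower, where 593 of the 21101 tested genes were called higher and 1050 lower. PCAT1, PCA3 and PCGEM1 are also the members whose knockdown and control libraries did not overlap: 2 higher, where 13.4% of tested genes had higher ranges without overlap, and 1 lower, where 17.0% had lower ones.

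No label says that the replicate number pairs the libraries across the groups. Same-numbered libraries deviated together from their group means (r = 0.554, 0.381 and 0.358). Block results therefore rest on a pairing read from these same counts. With the replicate number as a block, 4 of 7 members were called higher (PCAT1, PCA3, MALAT1 and NEAT1), where 11.2% of tested genes were, and PCGEM1 was called lower, where 14.9% of tested genes were. KCNQ1OT1 and SCHLAP1 passed in neither fit. In the plot of levels by library, the lines that join same-numbered libraries of MALAT1 and of NEAT1 all slope the same way although the groups overlap.

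**Figure D1:**
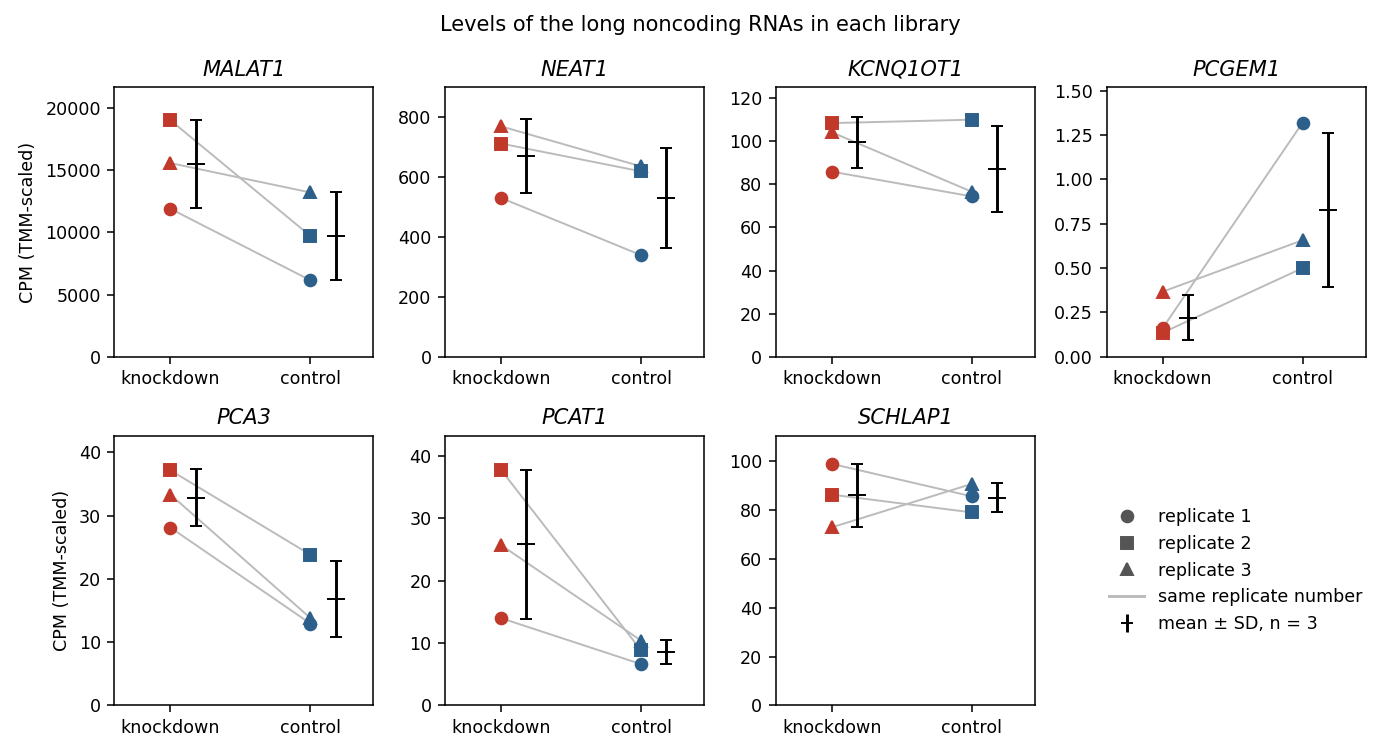
CPM (vertical axis, from 0) of each member in the 3 knockdown libraries (red, left) and the 3 control libraries (blue, right). Symbols mark the replicate number, grey lines join libraries with the same number, and black marks give the mean ± SD (n = 3). PCA3 and PCAT1 are higher and PCGEM1 lower in all knockdown libraries, and the other 4 members overlap between the groups.

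Levels can be compared between genes only per length of exon. Per kb, MALAT1 stood far above the rest with 1771 ± 407 CPM per kb in knockdown and 1107 ± 404 CPM per kb in control (SD, n = 3 each). SCHLAP1 came next with 60.0 ± 9.06 in knockdown and 59.3 ± 4.09 in control, then NEAT1 with 29.5 ± 5.49 in knockdown and 23.3 ± 7.32 in control, all in CPM per kb. PCAT1 (11.1 ± 5.13 in knockdown, 3.71 ± 0.817 in control) and PCA3 (8.38 ± 1.16 in knockdown, 4.29 ± 1.54 in control) were neighbours whose ranges overlapped within each group. In knockdown PCAT1 had the higher mean and in control PCA3 did. KCNQ1OT1 (1.09 ± 0.131 in knockdown, 0.949 ± 0.218 in control) and PCGEM1 (0.129 ± 0.0740 in knockdown, 0.482 ± 0.254 in control) closed the order, and apart from PCAT1 and PCA3 no neighbours overlapped in range. KCNQ1OT1 is annotated as a single exon of 91667 bases, and PCGEM1 had 16 reads in all knockdown libraries together and 72 in all control libraries.

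MALAT1 (ENSG00000251562.7, hg38 chromosome 11, 65497762 to 65506516, plus strand, intergenic) had 11905, 19032 and 15584 CPM in knockdown replicates 1, 2 and 3, against 6146, 9711 and 13219 CPM in control replicates 1, 2 and 3. Every knockdown library was above the control library of its number, but knockdown 1 lay below control 3, so the groups overlap. The means were 15507 ± 3564 CPM in knockdown and 9692 ± 3537 CPM in control (SD, n = 3 each), a log2 fold change of 0.68 (SE 0.29) that missed the threshold (adjusted p 0.181, edgeR). With the replicate block it was 0.72 (SE 0.18, adjusted p 0.0119), from log2 differences of 0.95, 0.97 and 0.24 in pairs 1, 2 and 3. MALAT1 alone held 1.20%, 1.96% and 1.65% of all reads in knockdown libraries and 0.576%, 0.974% and 1.28% in control libraries. It held rank 2 of all genes by reads in 5 libraries and rank 3 in control 1.

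The MALAT1 transcript ends without the usual poly(A) tail. A tRNA-like piece, mascRNA, is cut from its end, and the new end is held by a triple helix between an A-rich tract and U-rich motifs upstream. The long isoform of NEAT1 ends in the same way. Both ends are shown because they set how these RNAs enter a library, and whether polyadenylated RNA was selected is not given in the sources used here. Sequences are DNA letters of the GENCODE 29 transcripts (GRCh38, plus strand), 5′ to 3′, and capitals mark the U-rich motifs and the A-rich tract. They cover chr11:65505997-65506116 for MALAT1, chr11:65506117-65506173 for mascRNA and chr11:65445421-65445540 for NEAT1.
MALAT1 before mascRNA: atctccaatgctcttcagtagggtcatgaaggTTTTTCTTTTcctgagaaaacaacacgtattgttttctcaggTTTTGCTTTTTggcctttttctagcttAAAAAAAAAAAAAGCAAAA
mascRNA: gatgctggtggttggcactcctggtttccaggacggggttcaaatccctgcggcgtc
NEAT1 long isoform end: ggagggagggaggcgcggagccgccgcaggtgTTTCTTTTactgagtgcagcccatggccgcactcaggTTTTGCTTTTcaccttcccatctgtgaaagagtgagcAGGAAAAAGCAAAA
The mascRNA entry (57 bases) lies inside the MALAT1 exon on the same strand and, like all such entries, was at 0 reads in the 6 libraries, so its level cannot be read from these counts.

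The table also lists entries on the opposite strand of MALAT1. AP000769.1, 1589 bases wholly inside the MALAT1 exon, had 592844 reads over the 6 libraries, 1.499 times the reads per base of MALAT1. Its level was 2763 ± 839 CPM per kb in knockdown and 1528 ± 524 CPM per kb in control, a log2 fold change of 0.85 (SE 0.30, adjusted p 0.115; 0.00114 with the replicate block). AP000769.7, 396 bases near the 5′ end, had 9.34 ± 4.19 CPM per kb in knockdown and 3.94 ± 1.99 CPM per kb in control, a log2 fold change of 1.24 (SE 0.45, adjusted p 0.122; 0.00255 with the replicate block). Like MALAT1, both passed with the block and not in the unblocked fit, and whether they hold reads of MALAT1 itself was not tested.

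NEAT1 (ENSG00000245532.6, chromosome 11, 65422774 to 65445540, plus strand, intergenic) had 530, 712 and 770 CPM in knockdown replicates 1, 2 and 3, against 339, 619 and 636 CPM in control replicates 1, 2 and 3. Each knockdown library was above the control library of its number, and knockdown 1 was below control 2 and control 3. The means were 671 ± 125 CPM in knockdown and 531 ± 167 CPM in control (SD, n = 3 each). NEAT1 missed the threshold in edgeR at a log2 fold change of 0.34 (SE 0.24, adjusted p 0.437), and had 0.37 (SE 0.12, adjusted p 0.0361) with the replicate block. GENCODE 29 lists 8 NEAT1 transcripts of 512 to 22743 bases, and counts per gene do not separate the short isoform from the long one that builds paraspeckles. Within a library, the log2 ratio of NEAT1 to MALAT1 reads averaged -4.52 ± 0.202 in knockdown and -4.18 ± 0.203 in control. The difference of -0.35 had an exact two-sided permutation p of 0.2 (adjusted over the 3 ratios examined, 0.4), where 3 against 3 libraries allow no p below 0.1. By pair the difference was -0.31, -0.77 and 0.04, so pair 3 did not show it.

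KCNQ1OT1 (ENSG00000269821.1, chromosome 11, 2608328 to 2699994, minus strand, inside the KCNQ1 gene) had 85.9, 108 and 104 CPM in knockdown replicates 1, 2 and 3, against 74.4, 110 and 76.6 CPM in control replicates 1, 2 and 3. Control 2 was the highest of the 6, and the groups overlap. KCNQ1OT1 did not pass in edgeR at a log2 fold change of 0.19 (SE 0.18, adjusted p 0.536), nor at 0.21 (SE 0.11, adjusted p 0.181) with the block. KCNQ1, the potassium channel gene on the other strand, had 1.40 ± 0.556 CPM in knockdown and 1.82 ± 0.782 CPM in control, and shares 121 exon bases with KCNQ1OT1. The log2 ratio of KCNQ1OT1 to KCNQ1 reads was 6.20 ± 0.453 in knockdown and 5.65 ± 0.668 in control. All 3 pairs were higher in knockdown (by 0.37, 0.49 and 0.79), while the exact permutation test over the unpaired libraries gave p = 0.4 (adjusted p 0.4). KCNQ1 had few reads: 16, 51 and 43 in knockdown replicates 1, 2 and 3, and 25, 59 and 88 in control replicates 1, 2 and 3. Short opposite-strand entries inside the KCNQ1OT1 exon held 0.638 (KCNQ1OT1_1) to 3.21 (KCNQ1OT1_5) times its reads per base. The ratio therefore cannot be read as antisense against sense RNA.

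Among 12 tested genes of the imprinted domain around KCNQ1OT1, none passed without the block. By unadjusted p under 0.05, 1 was lower and none higher, and DESeq2 and limma-voom called none. The block fit called 14.9% of all tested genes lower. With the block, 2 were lower: CD81, a tetraspanin (log2 fold change -0.33, adjusted p 0.196 without the block; -0.34, adjusted p 0.0246 with it), and CARS, a cysteinyl-tRNA synthetase (-0.37, adjusted p 0.477 without the block; -0.36, adjusted p 0.0205 with it). Without the block, the CARS value was -0.06 without control 3, -0.14 without knockdown 1 and -0.60 without knockdown 3. That of CD81 was -0.23 to -0.41 in these 6 fits. CDKN1C, the cell cycle inhibitor that KCNQ1OT1 silences in cis, had 0.538 ± 0.218 CPM in knockdown and 0.400 ± 0.0785 CPM in control. PHLDA2, another imprinted target, had 2.38 ± 1.21 CPM in knockdown and 2.72 ± 2.29 CPM in control. The median log2 fold change of the 12 was 0.03, beside 0.00 for all tested genes, and TRPM5, second after CD81 by p without the block, had 0.71 (adjusted p 0.430).

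PCA3 (ENSG00000225937.1, chromosome 9, 76764436 to 76787569, plus strand, in an intron of PRUNE2 on the opposite strand) had 28.1, 37.2 and 33.3 CPM in knockdown replicates 1, 2 and 3, against 12.9, 23.8 and 13.8 CPM in control replicates 1, 2 and 3. Every knockdown library was above every control library. PCA3 rose to 32.9 ± 4.55 CPM in knockdown, against 16.8 ± 6.05 CPM in control (SD, n = 3 each), a log2 fold change of 0.97 (SE 0.24, adjusted p 0.0459, edgeR), and 1.01 (SE 0.14, adjusted p 0.000211) with the block. The call without the block was narrow. Scaling by library totals gave an adjusted p of 0.0502. Without knockdown 1, 2 or 3 the adjusted p was 0.0535, 0.155 or 0.108, and without control 1, 2 or 3 it was 0.0877, 0.0101 or 0.136, with log2 fold changes from 0.83 to 1.28.

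PRUNE2, the coding gene whose intron holds PCA3, also rose. It had 1892, 1743 and 2006 CPM in knockdown replicates 1, 2 and 3, against 1090, 1277 and 1102 CPM in control replicates 1, 2 and 3, with no overlap. In the edgeR test it changed by a log2 of 0.70 (SE 0.14, adjusted p 0.0186; 0.00160 with the block), and the call was lost without knockdown 1, 2 or 3 or without control 3, with adjusted p up to 0.0697. The exons of PCA3 and PRUNE2 share no base, but unspliced PRUNE2 RNA covers the PCA3 locus. The log2 ratio of PCA3 to PRUNE2 reads was -5.84 ± 0.267 in knockdown and -6.15 ± 0.357 in control, a difference of 0.31 with an exact permutation p of 0.3 (adjusted p 0.4), and by pair it was 0.32, 0.19 and 0.41. AL359314.1, a short entry in a PCA3 intron on the PCA3 strand, had 12.8 ± 1.73 CPM per kb in knockdown and 6.66 ± 2.75 CPM per kb in control (log2 fold change 0.95, SE 0.31, adjusted p 0.0981; 0.0113 with the block). It held 1.52 times the reads per base of the PCA3 exons, and is a single entry of 261 bases with 420 reads. The part of intronic reads in the PCA3 count was not tested.

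**Figure D2:**
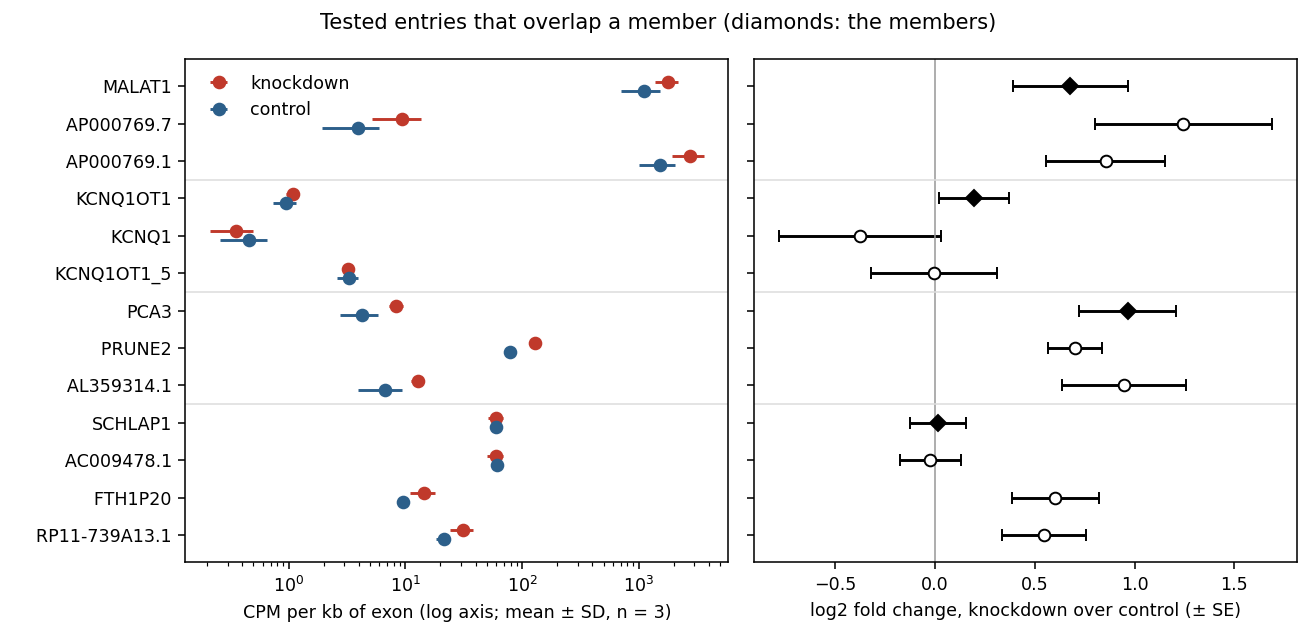
Tested entries that overlap a member, grouped by locus with the member first. Left: CPM per kb of exon on a log axis in knockdown (red) and control (blue), mean ± SD, n = 3. Right: log2 fold change ± SE, members as diamonds. The MALAT1 and PCA3 loci lie to the right of 0 with their overlapping entries, while SCHLAP1 and AC009478.1 sit at 0.02 and -0.02.

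The start of PCA3 is shown beside that of PCGEM1, which lay on the other side of 0. Each RefSeq window (GRCh38.p14) runs from 250 bases before to 50 after the start, at chr9:76764186-76764485 for PCA3 and chr2:192749595-192749894 for PCGEM1, both on the plus strand. RefSeq windows were found for 3 of the 7 members, with MALAT1 besides these. Capitals mark AGAACA on either strand, the half-site of the androgen receptor.
PCA3: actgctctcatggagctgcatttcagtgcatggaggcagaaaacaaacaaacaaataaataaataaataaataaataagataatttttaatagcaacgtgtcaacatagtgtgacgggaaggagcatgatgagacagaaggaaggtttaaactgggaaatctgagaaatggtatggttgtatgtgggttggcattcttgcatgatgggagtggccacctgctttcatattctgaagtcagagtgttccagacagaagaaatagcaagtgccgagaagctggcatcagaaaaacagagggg
PCGEM1: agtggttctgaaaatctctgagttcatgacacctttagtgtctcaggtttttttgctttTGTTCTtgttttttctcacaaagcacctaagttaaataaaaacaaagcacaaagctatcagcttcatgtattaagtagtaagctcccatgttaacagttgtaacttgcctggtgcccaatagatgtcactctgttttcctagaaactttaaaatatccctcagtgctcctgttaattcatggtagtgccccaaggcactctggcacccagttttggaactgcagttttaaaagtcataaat
The PCGEM1 window holds 1 match, read as TGTTCT, and the PCA3 window 0, so no matches overlap in these windows. MALAT1 has 2 RefSeq windows, not shown: the first holds 0 matches of AGAACA and 5 GC boxes, and the second holds 1 match, also read as TGTTCT, and 1 TATA box. AGAACA occurs on either strand in 14.8% of 35116 RefSeq windows of this length. The GC box GGGCGG (45.0% of windows) and the TATA box TATAAA (11.5%), also searched on both strands, occur in neither the PCA3 nor the PCGEM1 window. GC content was 40.7% for PCA3 and 38% for PCGEM1, against a median of 58.7% over all windows. A match or its absence in these letters is a description of the window only.

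PCGEM1 (ENSG00000227418.6, chromosome 2, 192749845 to 192776899, plus strand, intergenic) had 3, 5 and 8 reads in knockdown replicates 1, 2 and 3, against 34, 15 and 23 reads in control replicates 1, 2 and 3. These counts are 0.161, 0.135 and 0.366 CPM in knockdown and 1.32, 0.4996 and 0.657 CPM in control. All knockdown libraries were below all control libraries, and control 1 was the highest. In edgeR the log2 fold change of -1.92 (SE 0.54, adjusted p 0.0651) fell short of the threshold. With the replicate block PCGEM1 fell by 1.80 on the log2 scale (SE 0.47, adjusted p 0.0136), and DESeq2 gave an adjusted p of 0.0473. Fits that left out 1 library gave log2 fold changes from -2.46 to -1.39, the last without control 1, with adjusted p from 0.0548 to 0.233. Only 13.8% of the tested long noncoding RNA genes had a lower mean CPM than PCGEM1, so its estimate rests on few reads.

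PCAT1 (ENSG00000253438.2, chromosome 8, 126847055 to 127021014, plus strand, annotated as antisense) had 14.0, 37.7 and 25.7 CPM in knockdown replicates 1, 2 and 3, against 6.60, 8.79 and 10.4 CPM in control replicates 1, 2 and 3. All knockdown libraries were above all control libraries, and knockdown 2 was the highest and also the deepest of its group. PCAT1 rose to 25.8 ± 11.9 CPM in knockdown, against 8.58 ± 1.89 CPM in control (SD, n = 3 each), 3.01-fold, a log2 fold change of 1.59 (SE 0.33, adjusted p 0.0245, edgeR). With the block it was 1.52 (SE 0.18, adjusted p 6e-05), from pair differences of 1.08, 2.10 and 1.31. With every library thinned to the smallest total the call stood (adjusted p 0.0264). The call ended in 5 of the 6 fits that left out 1 library. Without control 1, 2 or 3 the adjusted p was 0.0611, 0.0564 or 0.0535, without knockdown 2 or 3 it was 0.0847 or 0.0594, and without knockdown 1 it was 0.00681. The log2 fold change was lowest, 1.21, without knockdown 2.

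Genes around PCAT1 had log2 fold changes of both signs. PRNCR1, a prostate-linked noncoding RNA downstream of PCAT1, had 12.2 ± 5.09 CPM in knockdown and 5.78 ± 1.23 CPM in control (log2 fold change 1.09, adjusted p 0.0724; with the block 1.03, adjusted p 0.000785). PCAT2, also a neighbour, had 1.06 ± 0.450 CPM in knockdown and 0.438 ± 0.179 CPM in control (1.28, adjusted p 0.111; 0.0149 with the block). PVT1, the noncoding RNA beside MYC, had 73.3 ± 7.78 CPM in knockdown and 49.995 ± 9.85 CPM in control (0.55, adjusted p 0.0749; 0.00218 with the block). MYC itself, the transcription factor gene of this region, had 170 ± 22.4 CPM in knockdown and 246 ± 39.5 CPM in control (-0.53, adjusted p 0.0751; 0.00270 with the block). CASC8 and CASC11, noncoding RNAs of the same region, passed in neither fit, with log2 fold changes of -0.26 and -0.14.

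SCHLAP1 (ENSG00000281131.1, chromosome 2, 180692104 to 180916939, plus strand, intergenic) had 99.0, 86.4 and 73.0 CPM in knockdown replicates 1, 2 and 3, against 85.7, 79.1 and 90.8 CPM in control replicates 1, 2 and 3. The groups overlap, and the knockdown libraries hold both the highest and the lowest value. The means were 86.1 ± 13.0 CPM in knockdown and 85.2 ± 5.87 CPM in control (SD, n = 3 each), a log2 fold change of 0.02 (SE 0.14, adjusted p 0.961, edgeR; 0.970 with the block). Its sign turned without knockdown 1 (-0.10) and without control 2 (-0.05). AC009478.1, which lies on the opposite strand and shares 212 exon bases with SCHLAP1, had 59.6 ± 9.19 CPM per kb in knockdown and 60.5 ± 4.19 CPM per kb in control (log2 fold change -0.02). Of the entries in SCHLAP1 introns, FTH1P20, a ferritin pseudogene, had a log2 fold change of 0.60 (adjusted p 0.125; 0.0363 with the block) and RP11-739A13.1 had 0.55 (adjusted p 0.147; 0.0203 with the block), and their difference from SCHLAP1 was not tested.

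**Figure D3:**
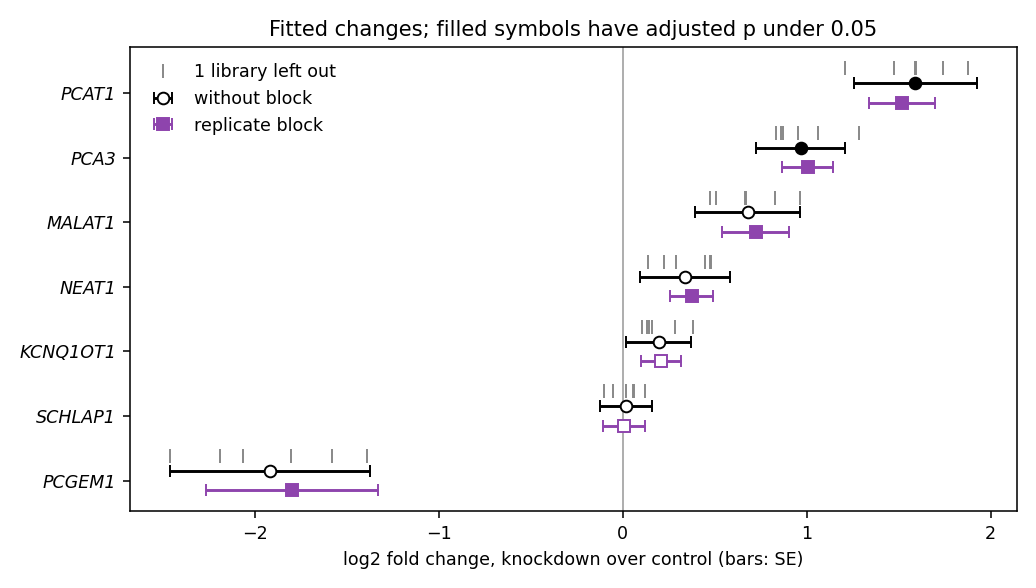
Log2 fold change ± SE of each member, knockdown over control, without the replicate block (black circles) and with it (purple squares), and in the 6 fits that left out 1 library (grey ticks). Filled symbols have an adjusted p under 0.05: 2 members without the block and 5 with it. The ticks of SCHLAP1 fall on both sides of 0 and those of the other members on 1 side.

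Genes of the bodies in which MALAT1 and NEAT1 reside were read from lists of their proteins. Of 30 tested nuclear speckle and MALAT1-associated genes, 3 fell and none rose: U2AF2, the large subunit of a factor that acts at the 3′ splice site (192 ± 23.1 CPM in knockdown, 310 ± 12.6 CPM in control, log2 fold change -0.69, adjusted p 0.0155), SRPK1, a kinase of SR splicing factors (94.8 ± 7.28 CPM in knockdown, 151 ± 27.8 CPM in control, -0.67, adjusted p 0.0325), and RNPS1, an exon junction protein (110 ± 14.3 CPM in knockdown, 160 ± 8.99 CPM in control, -0.54, adjusted p 0.0414). In that fit 4.88% of all tested genes and 6.71% of tested protein-coding genes were called lower. DESeq2 called 4 of the list lower and limma-voom 3. The count was 0 without control 1, knockdown 2 or knockdown 3, 1 without knockdown 1, and at most 2 in the other leave-one-out fits. The RNPS1 call was lost in all 6 of them, and under library totals (adjusted p 0.0724) and upper quartile scaling (adjusted p 0.0828), where the count was 2. With the block 11 of 30 fell, where 14.9% of all tested genes and 19.9% of tested protein-coding genes were called lower. Among the 11 were SRSF2, SRSF3, SRSF6 and SRSF7, SR proteins of the splicing machinery. Their log2 fold changes were -0.49, -0.55, -0.38 and -0.49 in the unblocked fit. SON and SRRM2, the proteins of the speckle core, had 0.22 (adjusted p 0.612) and 0.21 (adjusted p 0.721). METTL16, which binds the MALAT1 end, had -0.02 (adjusted p 0.935). The median of the list was -0.24, beside 0.00 for all tested genes.

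Of 29 tested paraspeckle protein genes, none passed without the block. By unadjusted p under 0.05, 6 were lower and none higher, DESeq2 called 1 lower and limma-voom none. The essential paraspeckle proteins SFPQ (290 ± 30.3 CPM in knockdown, 356 ± 41.6 CPM in control, log2 fold change -0.29, adjusted p 0.231) and NONO (516 ± 85.5 CPM in knockdown, 540 ± 79.8 CPM in control, -0.06, adjusted p 0.849) did not pass in either fit. With the block 8 fell, with TARDBP (log2 fold change -0.56, adjusted p 0.0586; 0.00223 with the block), NUDT21 (-0.49, adjusted p 0.0742; 0.00630) and EWSR1 (-0.45, adjusted p 0.0985; 0.00564) first by p. All 3 bind RNA, and NUDT21 is a cleavage factor subunit with a part in the choice between the NEAT1 isoforms. The block fit called 14.9% of all tested genes and 19.9% of tested protein-coding genes lower, beside the 8 of 29 here. The list median was -0.11, and it was 0.01 under upper quartile scaling, which moved the median of all tested genes to 0.12.

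None of 20 tested other prostate-linked long noncoding RNAs passed without the block, with 4 higher and 1 lower by unadjusted p under 0.05. DESeq2 called 2 higher and limma-voom none. With the block 5 rose (PCAT2, DRAIC, PRNCR1, PVT1 and AC018804.3) and 3 fell (PRCAT47, PCAT19 and TMPO-AS1), beside the 11.2% of all tested genes called higher and 14.9% called lower in that fit. PRCAT47, also called ARLNC1 and known as an androgen-induced RNA, had 1.05 ± 0.591 CPM in knockdown and 1.96 ± 0.320 CPM in control (log2 fold change -0.89, adjusted p 0.231; 0.0401 with the block). PCAT19 had 0.292 ± 0.0776 CPM in knockdown and 0.709 ± 0.108 CPM in control (-1.22, adjusted p 0.0748; 0.0446 with the block). The list median was 0.04.

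Of 20 tested other nuclear or widely expressed long noncoding RNAs, none passed without the block, with 3 higher and 2 lower by unadjusted p under 0.05, 1 lower in DESeq2 and none in limma-voom. With the block FTX, LINC01021 and TTN-AS1 rose (log2 fold changes of 0.49, 0.67 and 0.34 in the unblocked fit) and MIR22HG fell (-0.65). That is 3 of 20 higher and 1 lower, beside 11.2% and 14.9% of all tested genes. NORAD, a cytoplasmic RNA that binds Pumilio proteins, had 501 ± 40.8 CPM in knockdown and 432 ± 47.1 CPM in control (0.21, adjusted p 0.361). TUG1 had 219 ± 26.1 CPM in knockdown and 227 ± 7.38 CPM in control (-0.06, adjusted p 0.821). The list median was 0.04.

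Of 14 tested genes that lie across from or close to a member, PRUNE2 was the only one called (1 higher and none lower, also in DESeq2 and limma-voom, with 2 higher and 1 lower by unadjusted p under 0.05). With the block POU5F1B and FOXB2 were also higher and MYC lower, beside 11.2% of all tested genes called higher and 14.9% lower. FOXB2, a low gene on the PCA3 chromosome, had 0.686 ± 0.0102 CPM in knockdown and 0.292 ± 0.0712 CPM in control (log2 fold change 1.20, adjusted p 0.0690; 0.0366 with the block). FRMD8, a neighbour of MALAT1 and NEAT1, had a log2 fold change of 0.14 and passed in neither fit.

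Androgen-induced genes were read beside the prostate-linked members because several of these RNAs are known to respond to androgen. Of 16 tested, 6 fell and none rose, where 4.88% of all tested genes fell. By unadjusted p under 0.05, 9 were lower and none higher, and DESeq2 called 8 lower and limma-voom 7. KLK3, the gene of prostate-specific antigen, fell to 957 ± 178 CPM in knockdown, against 2664 ± 318 CPM in control (log2 fold change -1.48, adjusted p 0.00270). TMEM140 fell to 29.2 ± 1.51 CPM in knockdown, against 57.0 ± 3.88 CPM in control (-0.96, adjusted p 0.00394), and KLK2, another kallikrein, to 211 ± 52.9 CPM in knockdown, against 427 ± 71.2 CPM in control (-1.01, adjusted p 0.0205). The other 3 were TMPRSS2, FKBP5 and NDRG1, and the list median was -0.78. Of the prostate-linked members, PCGEM1 lay below 0, not called without the block, and PCA3, PCAT1 and SCHLAP1 (0.02) lay above 0. The 20 other prostate-linked RNAs had 10 log2 fold changes below 0 and 10 above. A link of any of these RNAs to androgen was not tested. Without 1 library the count of lower genes was 2 to 5, lowest without knockdown 3 (2), and 3 without knockdown 2 or control 3.

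**Figure D4:**
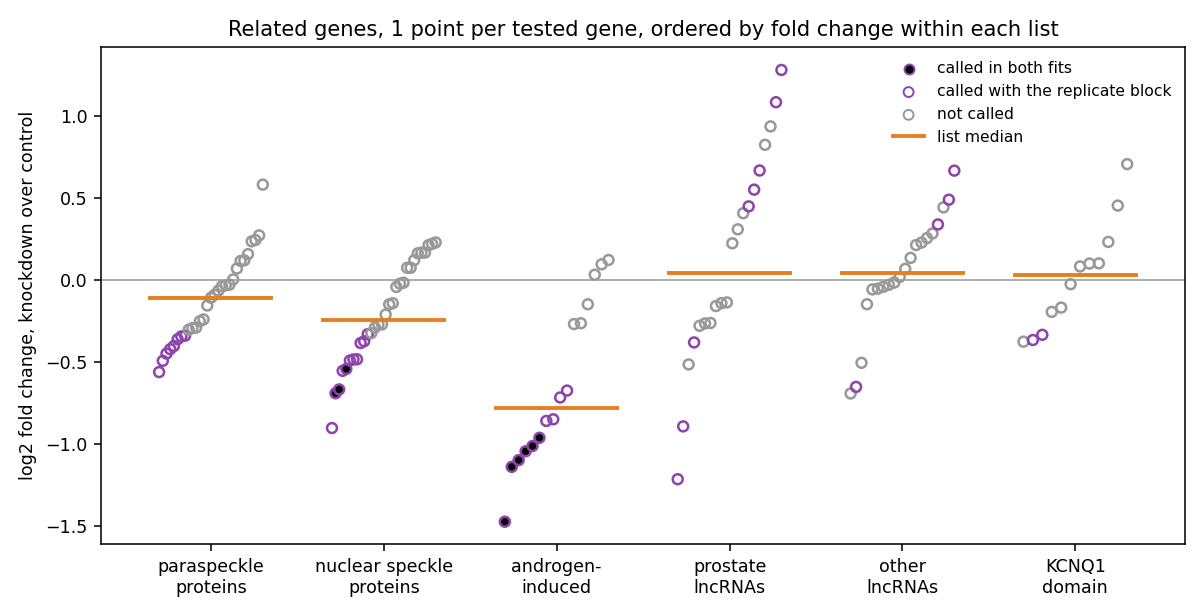
Log2 fold change, knockdown over control, of every tested gene in 6 related lists, with 1 circle per gene ordered by value and the list median as an orange line. Black circles passed in both fits, purple ones with the replicate block only, and grey ones in neither. The androgen-induced genes have the lowest median (-0.78), and black circles appear in that list and among the nuclear speckle proteins.

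Set against the whole class, 6 of the 7 members, all but PCGEM1, stood high by mean CPM, which is not scaled to length. KCNQ1OT1, with an exon of 91667 bases, had only 1.09 ± 0.131 CPM per kb in knockdown and 0.949 ± 0.218 CPM per kb in control. PCAT1 had a higher mean CPM than 91.9% of the 4874 tested long noncoding RNA genes of GENCODE 29, and PCA3, SCHLAP1, KCNQ1OT1, NEAT1 and MALAT1 stood higher still. Of this class, 102 (2.09%) rose and 106 (2.17%) fell, against 402 and 904 of 13463 tested protein-coding genes. With the block 460 long noncoding RNA genes rose and 370 fell. The class median log2 fold change was 0.09, and that of coding genes -0.04. Reads on 887 annotated sense-intronic entries, a sum chosen after the values were seen, came to 841, 970 and 905 CPM in knockdown replicates 1, 2 and 3 and 803, 926 and 837 CPM in control replicates 1, 2 and 3. Each knockdown library was above its same-numbered control, the groups overlap, and the part of unspliced RNA in the members' changes was not tested.

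**Figure D5:**
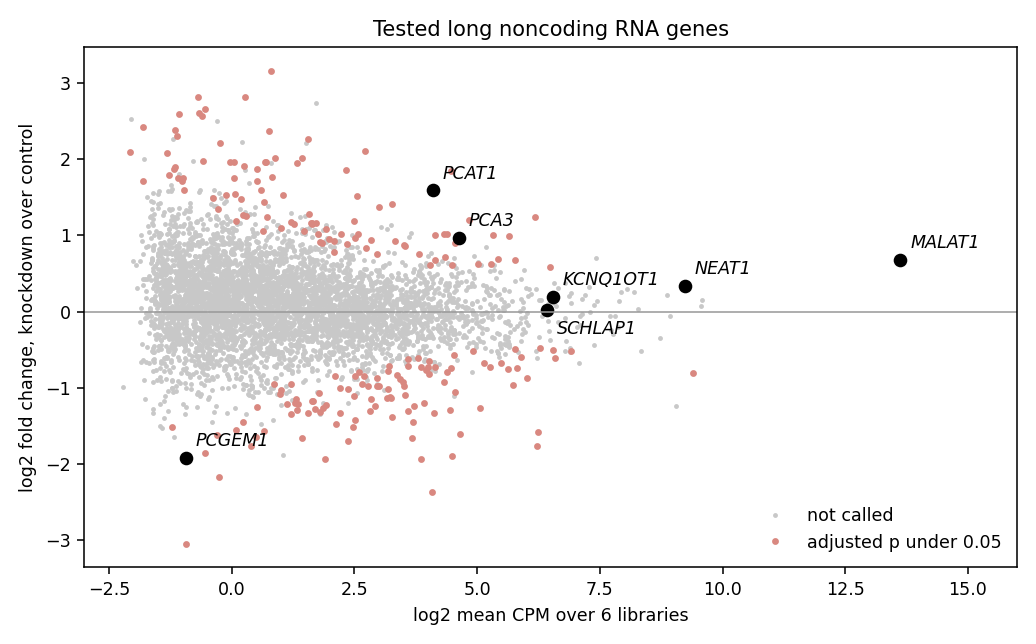
Log2 fold change, knockdown over control (vertical axis), against log2 mean CPM over the 6 libraries (horizontal axis) for 4874 tested long noncoding RNA genes. Pink points have an adjusted p under 0.05, grey points do not, and large black points are the 7 members. MALAT1 lies at the far right, and PCGEM1 at the low end on the negative side.

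Each member's pattern over the 6 libraries was also set against 16811 tested genes with a mean of at least 1 CPM, by Pearson's r of log2 CPM. This is a description: the points share libraries, groups and scaling. The nearest gene to MALAT1 was AP000769.7 (r = 0.990), its opposite-strand entry. The nearest to NEAT1 was DIS3L2 (0.996), an RNA exonuclease gene, and to KCNQ1OT1 it was IQSEC1 (0.998). PCA3 lay nearest to RFX7 (0.997), a transcription factor gene that itself rose (log2 fold change 0.89, adjusted p 0.0289). PCAT1 lay nearest to RP11-228M15.1 (0.998), PCGEM1 to the antisense entry ENSG00000261173.1 (0.995) and SCHLAP1 to AC016644.1 (0.992). Next came SH3YL1 and FOXL2NB for MALAT1, ERICH1 and MYO18A for NEAT1, HIRA and RP11-562A8.5 for KCNQ1OT1, ZNF454 and RASGRP1 for PCA3, CEACAM1 and NOA1 for PCAT1, B3GNT2 and MYH3 for PCGEM1, and ZNF788 and PKP2 for SCHLAP1.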

How the data were processed

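The tools named in the submitters' processing notes are bcl2fastq, STAR 2.5 with hg38, featureCounts of Subread 1.6.5, and edgeR 3.20.8. The annotation release and strand setting are not given in the sources used here. Trizol extraction and a TruSeq RNA library kit are given per the labels' protocols. The authors deposited raw counts, 1 whole number for each gene in each library. Of 63299 identifiers, 57492 occur in GENCODE 29, which gave gene types (15474 long noncoding RNA genes), and 53747 have the same coordinates there.

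From these counts, edgeR 4.0.16 in R 4.3.3 tested knockdown against control over 21101 genes (TMM scaling, filterByExpr, quasi-likelihood F test, two-sided, Benjamini-Hochberg over all tested genes, adjusted p under 0.05 called). SE was derived from the test, as the absolute log2 fold change divided by the square root of its F statistic. The script was tested on simulated data. Alternatives were RLE, upper quartile or library-total scaling, no filter, the replicate block, DESeq2 1.42.0, limma-voom (limma 3.58.1), thinned counts and leaving out each library. Ratios used counts plus 0.5 and an exact permutation test. The library titles give the numbers 1 to 3 in both groups. Whether they pair the libraries is not stated by any label and was read from the data. Libraries with different numbers correlated at -0.39 to 0.06. Deviations from the mean of a group of 3 sum to 0, which ties these r to those of same-numbered libraries. edgeR's biological coefficient of variation fell to 11.9% with the block, against 20.8% in the unblocked fit, which had 4 residual degrees of freedom to the block's 2. Library totals ranged from 18568002 to 36234784 counts.

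The members were given by name, not by their values. The 10 gene lists were chosen with earlier results of these data known, so list counts are descriptions. The text names all members, the 3 genes of each list with the smallest p, overlapping genes, and the 3 genes closest in pattern to each member. Other list genes were named for their known role after their values were seen. A gene of the lists is not reported here.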

Additional observations from a re-analysis of the deposited data

How the results depend on the processing

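The log2 fold changes of MALAT1, NEAT1, KCNQ1OT1, PCGEM1, PCA3 and PCAT1 kept their sign under all alternatives run. Leaving out 1 library gave 0.47 to 0.96 for MALAT1, 0.14 to 0.48 for NEAT1, 0.10 to 0.38 for KCNQ1OT1, -2.46 to -1.39 for PCGEM1, 0.83 to 1.28 for PCA3, 1.21 to 1.88 for PCAT1 and -0.10 to 0.12 for SCHLAP1, which turned sign without knockdown 1 (-0.10) and control 2 (-0.05). Calls were gained with the replicate block by MALAT1 (0.72), NEAT1 (0.37) and PCGEM1 (-1.80), with no filter by MALAT1 (0.67) and PCGEM1 (-1.93), and in DESeq2 by PCGEM1 (-1.92). The no-filter fit took each gene's spread wholly from a shared trend (infinite prior degrees of freedom, against 5.09 in the main fit). Its calls, here and below, thus leave out gene-specific spread. The PCA3 call was lost under library totals (1.05). PCGEM1 was not tested in thinned counts, having too few reads. The cause of these shifts was not tested.

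Over all genes, 574 rose and 1029 fell. The counts were 898 and 1440 in DESeq2, 1336 and 1812 with no filter, 2358 and 3148 with the block, and 894 and 722 under upper quartile scaling. Library totals gave 768 and 777. Upper quartile scaling moved the median log2 fold change of all genes to 0.12 and library totals to 0.09, and PCA3 (1.09) and PCAT1 (1.71) remained above that shift. Without 1 library, 168 to 500 genes rose and 329 to 923 fell. The long noncoding class had 460 higher and 370 lower with the block.

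The block fit called 11.2% of all tested genes higher and 14.9% lower. Gene list counts with the block were 8 lower for paraspeckle proteins, 11 lower for speckle proteins, and 5 higher and 3 lower for prostate-linked RNAs. The counts were 3 higher and 1 lower for other noncoding RNAs and 2 lower for the KCNQ1 domain. The remaining counts were 3 higher and 1 lower for close genes, and 10 lower for androgen-induced genes. With no filter they were 2 lower for paraspeckle and 8 lower for speckle proteins, 3 higher for prostate-linked RNAs, 1 higher and 1 lower for other noncoding RNAs, and 1 lower for close genes. DESeq2 gave 1 lower paraspeckle gene, 2 higher prostate-linked RNAs and 1 lower other noncoding RNA. Upper quartile scaling gave 1 higher prostate-linked RNA, and thinned counts 2 higher close genes. Without 1 library, paraspeckle counts were 0 to 1 higher and 0 to 2 lower, speckle counts 0 to 2 lower, prostate-linked counts 0 to 2 higher, close genes 0 to 1 higher and androgen-induced genes 2 to 5 lower.

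The within-library ratios kept their sign: -0.45 to -0.24 for NEAT1 to MALAT1, 0.18 to 0.84 for KCNQ1OT1 to KCNQ1 and 0.16 to 0.51 for PCA3 to PRUNE2 without 1 library. Flipping the sign of each pair gave exact p of 0.5, 0.25 and 0.25, where 3 pairs allow no p below 0.25. For 27 other named genes, 182 of the values under other settings stayed on their side of the threshold, 28 passed it newly and 3 no longer did, and without 1 library 121 stayed, 4 passed newly and 37 no longer did. Depth limits PCGEM1, with 3 to 8 reads in knockdown libraries.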
